A study of Mus musculus with 10 samples.

Results

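This account covers the genes of respiratory complex I in mouse gastrocnemius, the large calf muscle. Its members are all genes whose only symbol in the platform's probe annotation begins with Ndufa, Ndufab, Ndufaf, Ndufb, Ndufc, Ndufs or Ndufv, each read through the probe set with the highest mean. The rule found 43 genes among 19938, and all 43 passed the filter on low values, which kept 11963 genes. By role they were 6 core subunits, 9 accessory subunits of the matrix arm, 9 of the proximal membrane arm, 10 of the distal membrane arm and 7 assembly factors. The last 2, Ndufa4 and Ndufa4l2, carry the name of the family but are not complex I subunits: Ndufa4 is known as a protein of complex IV, and Ndufa4l2 is its hypoxia-inducible paralogue. Ndufb4, a subunit of the distal membrane arm, shares its probe sets with a second symbol and was therefore no member.

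Complex I takes electrons from NADH, passes them through a flavin and a chain of iron-sulfur clusters to ubiquinone, and pumps protons across the inner mitochondrial membrane. The core subunits of the matrix arm carry the flavin and the clusters, while core subunits encoded by mitochondrial DNA build the pump in the membrane. Nuclear accessory subunits wrap and stabilise the core, and assembly factors join the modules and do not stay in the finished enzyme. In skeletal muscle the complex is most abundant in oxidative fibres, and endurance training is known to raise the content of mitochondria.

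All animals were male C57BL/6 mice, and each of the 10 arrays measured 1 pool of RNA from the muscles of 5 animals. F0 EX animals had voluntary exercise and F0 SED animals a sedentary life; both were 28 weeks old, and each group had 1 pool. F1 EX and F1 SED descended from parents that were both exercised or both sedentary, and F2 EX and F2 SED came from matings of F1 littermates. All F1 and F2 animals were themselves sedentary and 8 weeks old, so EX and SED name their ancestry only, and each of these 4 groups had 2 pools. F0 differed from its descendants in age as well as in generation, and these cannot be told apart. The labels number the pools without stating that they held different animals, so p-values measure the spread between pools, which may be technical.

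Values are log2 signals, on which a difference of 1 is a 2-fold change, and levels of different genes are not compared because each has its own probes. Markers of skeletal muscle were far above the filter in every array: the mean of 10 of them ran from 11.9 in F0 SED to 12.3 in F2 EX. In such bulk RNA, fewer cells of a type and less RNA per cell cannot be told apart. F0 SED and F1 EX pool 1 stood apart from the rest, with median correlations to the other arrays of 0.974 and 0.979, against 0.986 to 0.993 elsewhere. Both had a lower quartile of 2.48, against 2.28 to 2.32 in the other 8. No 2 arrays held identical values. The number of arrays limits the precision.

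Among the 8 descendant pools the members varied little. The median of their standard deviations was 0.14, beside 0.15 for all genes kept. Ndufs3, a core subunit of the module that reduces ubiquinone, had the smallest spread (10.75 ± 0.04, SD, n = 8; lowest 10.70, median 10.74, highest 10.80). Ndufs5, a small subunit of the proximal membrane arm, had the largest (7.96 ± 0.38, SD, n = 8), from 7.20 in F1 EX pool 1 to 8.49 in F2 SED pool 2. Next came the assembly factor Ndufaf3 (SD 0.34) and the distal subunit Ndufb3 (SD 0.32), and the extreme pool was F1 EX pool 1 for both. A probe set that Ndufs5 shares with a second symbol measured 6.58 in both F1 EX pool 1 and F2 SED pool 2. F0 SED held the lowest of the 10 values in 21 of the 43 members, a share of 48.8%, beside 27.2% of all genes kept. Under quantile normalization it held the lowest in 14 members (32.6%, beside 22.4% of genes) and the highest in 11 (25.6%, beside 20.9%).

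**Figure D1:**
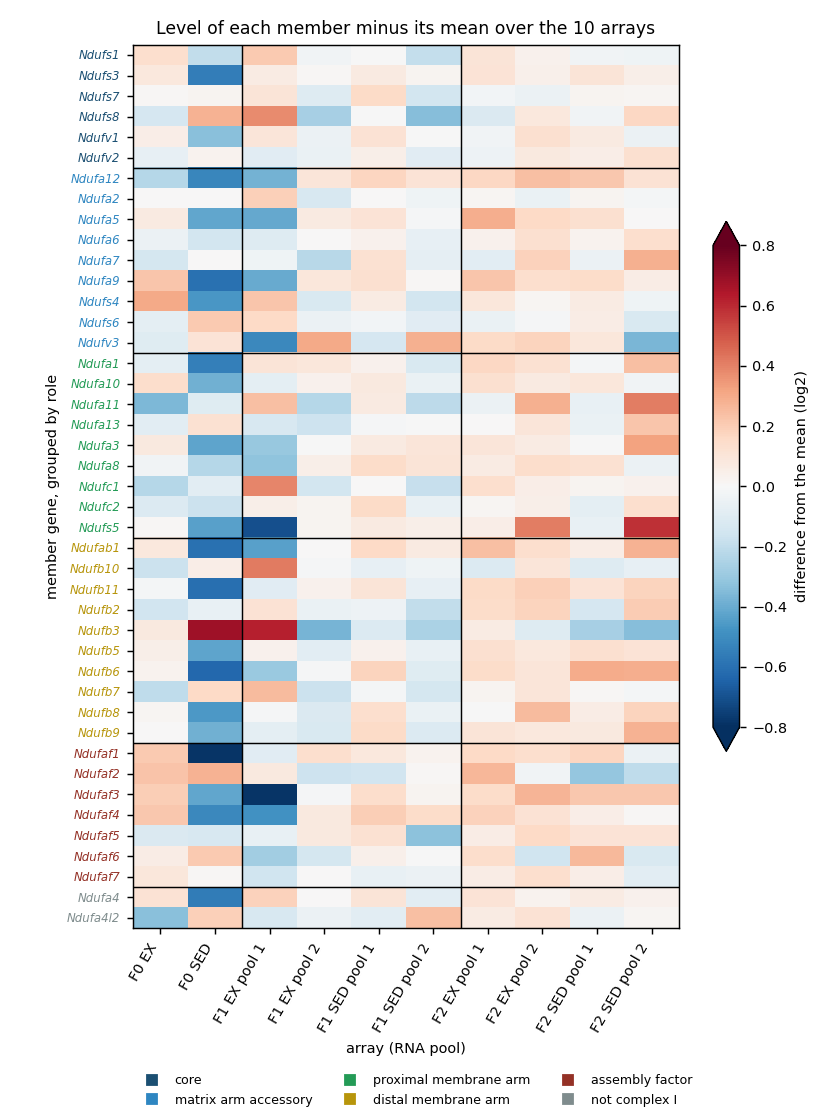
Level of each of the 43 members (rows, grouped and coloured by role) in each of the 10 arrays (columns), as the log2 difference from the member's own mean over the arrays; blue is lower and red is higher. F0 SED is the lowest array for 21 members, and Ndufb3 stands out as high in F0 SED and F1 EX pool 1.

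The arrays that stood apart shared a pattern over the members. F0 SED and F1 EX pool 1, which share neither generation, age nor ancestry, were both below all 8 other arrays in 14 members, a share of 32.6%, beside 13.7% of all genes kept. These were Ndufa12, Ndufa5, Ndufa6 and Ndufa9 of the matrix arm, Ndufa10, Ndufa3, Ndufa8 and Ndufs5 of the proximal membrane arm, Ndufab1, Ndufb11 and Ndufb6 of the distal arm, and the assembly factors Ndufaf1, Ndufaf3 and Ndufaf4. The second probe set of Ndufab1 was low in both too, with 7.53 and 7.98 against at least 8.14 elsewhere. That of Ndufb11 was not, with 8.66 and 8.96 against 8.50 to 8.73. The probe set that Ndufs5 shares with a second symbol had 6.18 and 6.58, against 6.47 to 6.82 elsewhere. Both arrays were above the other 8 in 4 members, Ndufb3, Ndufb7, Ndufs6 and Ndufs8, a share of 9.30%, beside 8.76% of all genes kept. Under each of 3 scalings (values as deposited, arrays centred on their medians, and quantile normalization) both arrays were lowest in 10 members (23.3%, beside 10.9% of genes) and highest in 3 (6.98%, beside 4.07%). The 10 were those listed without Ndufa10, Ndufa6, Ndufa8 and Ndufb11, and the 3 were Ndufb3, Ndufs6 and Ndufs8.

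The 2 arrays were close to each other in some of these members and not in others. Ndufaf4, an assembly factor that acts early on the matrix arm with Ndufaf3, measured 5.89 (F0 SED) and 5.91 (F1 EX pool 1), against a range of 6.41 to 6.62 over the 8 remaining arrays. Ndufaf3 measured 4.98 and 4.62 in the same arrays, and at least 5.39 elsewhere. Ndufaf1 measured 7.18 and 7.87, and at least 7.91 elsewhere. Ndufa9, an accessory subunit near the ubiquinone site, measured 9.48 and 9.67, and at least 10.09 elsewhere. Ndufb3, an accessory subunit of the distal arm, ran the other way, with 7.01 and 6.95 against at most 6.41 elsewhere. Ndufs8, a core subunit that carries iron-sulfur clusters, did so too, with 8.58 and 8.68 against at most 8.47.

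**Figure D2:**
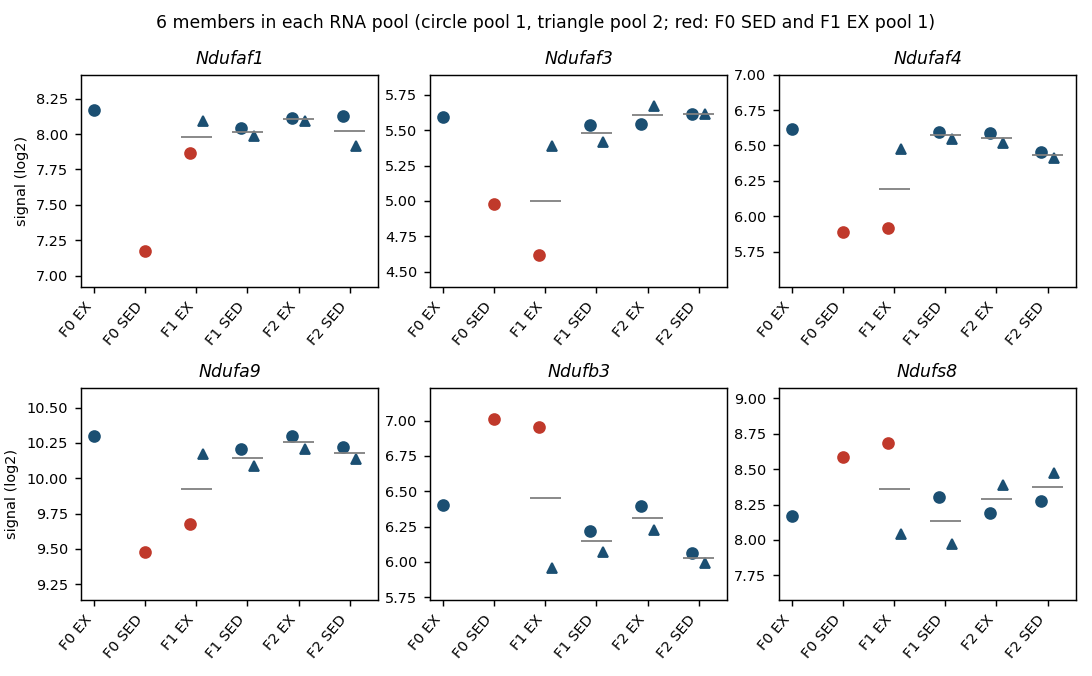
Log2 signal of 6 members in each pool (circles pool 1, triangles pool 2, bars the mean of 2 pools, red F0 SED and F1 EX pool 1); each panel has its own axis of equal span. The red points lie below all others for Ndufaf1, Ndufaf3, Ndufaf4 and Ndufa9 and above all others for Ndufb3 and Ndufs8.

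Across the 43 members, the difference F0 SED minus F0 EX and the difference F1 EX pool 1 minus pool 2 had a Pearson correlation of 0.52 and a Spearman correlation of 0.51. Over all 11963 genes kept the values were 0.32 and 0.28. The 2 differences share no array, and these are correlations across genes, which are not independent replicates. By size, 7 members differed between the F1 EX pools by 0.5 or more, 3 higher and 4 lower in pool 1, a share of 16.3%, beside 15.3% of all genes kept. Between the 2 pools of the other groups the count was 0 for F1 SED, 0 for F2 EX and 1 for F2 SED. No share over all genes is set beside these counts, so they are not read as a trait of the members.

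**Figure D3:**
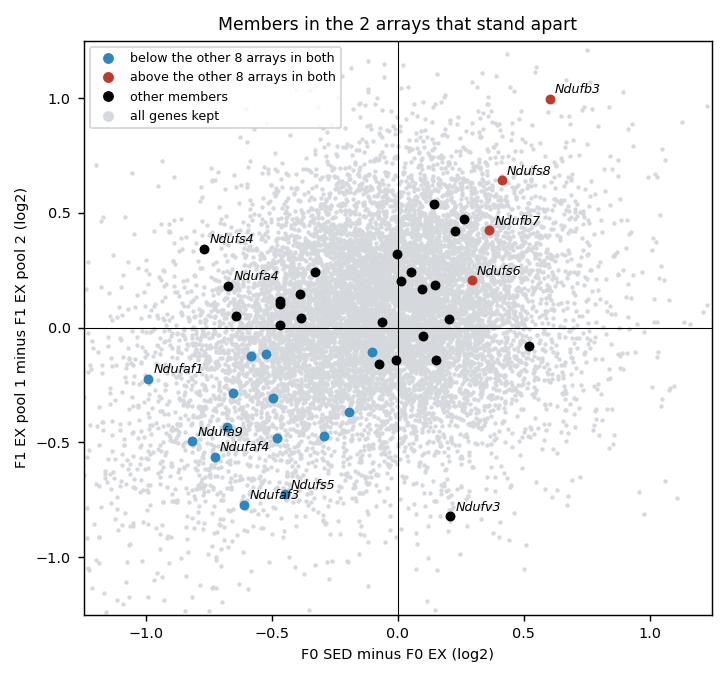
Each of the 43 members by its F0 SED minus F0 EX difference (horizontal, log2) and its F1 EX pool 1 minus pool 2 difference (vertical, log2), over all genes kept in grey within the plotted range. The 14 members in blue, lower in both arrays than in the other 8, sit at the lower left, and the 4 in red, higher in both, at the upper right.

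Promoters of members from both directions are shown because the 2 sets lay apart in the same arrays; from each, 1 with either motif below was chosen, so the match between the directions is by choice. The sequences are the 250 bases before each gene's start, from RefSeq on GRCm38.p6, printed 5′ to 3′ on the gene's strand. Capitals mark matches to the core of nuclear respiratory factor 1 (GCGCANGCG) or of GABPA (CCGGAAG), both known regulators of genes for respiratory chain proteins.
Ndufaf1, chr2:119662835-119663084, minus strand: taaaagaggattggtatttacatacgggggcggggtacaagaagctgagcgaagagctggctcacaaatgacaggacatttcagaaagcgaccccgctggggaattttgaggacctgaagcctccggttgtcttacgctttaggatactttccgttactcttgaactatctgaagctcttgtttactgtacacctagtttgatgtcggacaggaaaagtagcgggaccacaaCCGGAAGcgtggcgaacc
Ndufaf4, chr4:24897833-24898082, plus strand: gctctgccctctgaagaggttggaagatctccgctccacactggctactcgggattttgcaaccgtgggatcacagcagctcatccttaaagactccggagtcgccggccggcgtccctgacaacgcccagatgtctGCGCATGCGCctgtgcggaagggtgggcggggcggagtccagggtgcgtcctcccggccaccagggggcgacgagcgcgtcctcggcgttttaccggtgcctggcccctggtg
Ndufb7, chr8:83566508-83566757, plus strand: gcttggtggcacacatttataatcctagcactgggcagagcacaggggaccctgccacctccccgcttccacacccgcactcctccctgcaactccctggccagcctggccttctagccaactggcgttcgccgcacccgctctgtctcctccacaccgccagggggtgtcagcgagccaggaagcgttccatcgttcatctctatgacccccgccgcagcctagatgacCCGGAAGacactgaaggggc
Ndufs6, chr13:73328483-73328732, minus strand: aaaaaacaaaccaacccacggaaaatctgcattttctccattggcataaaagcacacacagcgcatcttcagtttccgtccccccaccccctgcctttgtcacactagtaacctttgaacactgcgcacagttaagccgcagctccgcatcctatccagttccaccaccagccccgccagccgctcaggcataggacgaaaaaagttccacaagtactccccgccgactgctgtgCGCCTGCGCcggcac
Ndufaf1 and Ndufaf4 were low in F0 SED and F1 EX pool 1, and Ndufb7 and Ndufs6 were high there. The match begins 18 bases before the start in Ndufaf1, 20 in Ndufb7 and 15 in Ndufs6, and matches on the 2 strands overlap in Ndufaf4, where the capitals begin at base 113. Promoter windows were found for 38 of the 43 members. In windows of 300 bases (250 before and 50 after the start), searched on both strands, the core of nuclear respiratory factor 1 occurred in 9 of the 38 (23.7%), beside 7.03% of 27025 genes. The GABPA core occurred in 5 (13.2%, beside 9.93%), and a YY1 motif (AAGATGGCG) in 5 (13.2%, beside 1.64%). No YY1 match in a member lay wholly within the 250 bases before the start. A motif of the oestrogen-related receptors (TCAAGGTCA) occurred in 0 of 38, beside 0.466% of genes. The core of nuclear respiratory factor 1 was present in 5 of the 14 promoters of low members, 1 of the 4 of high members and 3 of the 20 of other members. For the GABPA core these counts were 2 of 14, 2 of 4 and 1 of 20, and for the YY1 motif 1 of 14, 1 of 4 and 3 of 20. A match is a run of letters and was not tested as a binding site.

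The first comparison sets F0 EX against F0 SED, the only animals with exercise of their own. The highest single members were the assembly factor Ndufaf1 and the matrix arm subunits Ndufa9 and Ndufs4, which measured higher in the exercised pool. How many members did so depended on the scaling, and with 1 pool a group there was no test. As deposited, the median difference over the 43 members was 0.19, beside 0.08 over all genes kept, and 27 members were above 0 (62.8%, beside 58.0% of genes). By at least 0.5, 11 members were higher (25.6%, beside 15.3% of genes) and 2 were lower (4.65%, beside 5.38%). Centring every array on its median gave 19 higher (44.2%, beside 24.5% of genes) and 0 lower (beside 2.55%), with a median of 0.34 beside 0.22 over all genes. With quantile normalization 5 were higher (11.6%, beside 10.7%) and 6 lower (14.0%, beside 7.75%). The median was then -0.05 beside 0.01, and 21 of 43 were above 0 (48.8%, beside 50.8%). F0 SED, on which each of these values rests, is one of the arrays that stood apart.

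The highest single difference was that of an assembly factor. Ndufaf1, which helps to build the membrane arm, measured 8.17 in F0 EX and 7.18 in F0 SED, a difference of 0.99. The 8 descendant pools ran from 7.87 to 8.13, so that F0 EX lay just above and F0 SED below all of them. Ndufaf4 differed by 0.73 and Ndufaf3 by 0.61. The other assembly factors lay between -0.15 (Ndufaf6) and 0.08 (Ndufaf7), and the median of the 7 was 0.08, so the high values were those of 3 members. Under each of the 3 scalings Ndufaf1, Ndufaf3 and Ndufaf4 stayed at least 0.5 higher in F0 EX, as did Ndufa9 and Ndufs4. These 5 members are 11.6% of the 43, beside 9.38% of genes for which that held.

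Of the core subunits, Ndufs3 measured 10.78 in F0 EX and 10.13 in F0 SED, a difference of 0.64. Ndufv1, which binds NADH and the flavin, differed by 0.39 and Ndufs1, which carries iron-sulfur clusters, by 0.33. Ndufs7, which carries the last cluster before ubiquinone, differed by -0.01 and Ndufv2, a neighbour of Ndufv1, by -0.10. Ndufs8 was lower in F0 EX, at 8.17 against 8.58, a difference of -0.41. The core subunits thus did not share a direction.

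In the matrix arm, Ndufa9 measured 10.30 in F0 EX and 9.48 in F0 SED, a difference of 0.82. Ndufs4, an accessory subunit needed for a stable NADH-binding module, measured 9.41 and 8.64, a difference of 0.77. Ndufs6, a zinc-binding subunit of that module, lay at the other end with 9.52 and 9.81, a difference of -0.29. The 9 members of this group had a median of 0.10. In the proximal membrane arm the differences ran from -0.26 (Ndufa11) to 0.53 (Ndufa10), with a median of 0.19.

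The distal membrane arm had both the highest group median, 0.43, and the lowest single member. Ndufab1, the mitochondrial acyl carrier protein, measured 8.56 in F0 EX and 7.88 in F0 SED, a difference of 0.68, and its second probe set also measured higher in F0 EX. Ndufb6 differed by 0.66 and Ndufb11 by 0.59. Ndufb3 measured 6.41 and 7.01, a difference of -0.60, and Ndufb7, a subunit on the intermembrane side, differed by -0.36. Ndufa4 of complex IV measured 11.54 and 10.87, a difference of 0.68, while its paralogue Ndufa4l2 measured 5.34 and 5.86, a difference of -0.52. Of the 5 members with 2 probe sets, Ndufb11 and Ndufc1 had probe sets that disagreed in direction: the second of Ndufb11 measured 8.53 in F0 EX and 8.66 in F0 SED, and that of Ndufc1 8.21 and 7.90.

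**Figure D4:**
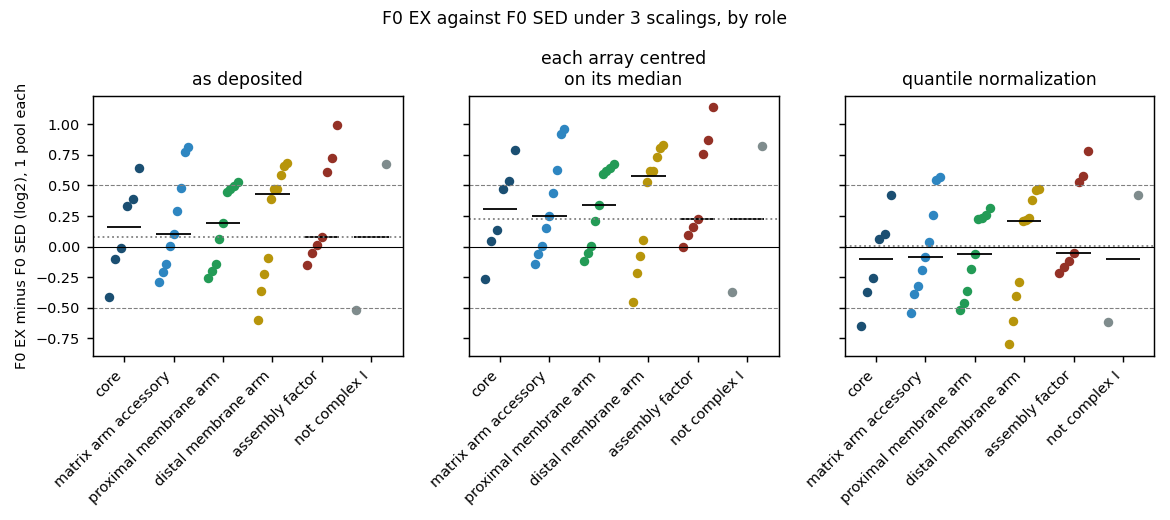
F0 EX minus F0 SED for each member (points, log2, 1 pool each) by role under 3 scalings; short bars are group medians, dotted lines the median of all genes kept, dashed lines the bounds at 0.5. The whole set moves with the scaling, from a median of 0.34 with centred arrays to -0.05 with quantile normalization, while 3 assembly factors stay above 0.5 in each panel.

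Of the other gene lists, several lay higher in F0 EX and others did not. The lists are given for the values as deposited only, and the members' own median moved with the scaling. Skeletal muscle markers had a median of 0.36 (9 of 10 above 0), genes of slow or oxidative fibres 0.36 (8 of 9) and genes of fast fibres 0.21 (8 of 10). Endothelial markers had a median of 0.47 (4 of 5 above 0) and myeloid markers 0.18 (7 of 8). The 44 nuclear subunits of complexes II to V had a median of 0.17, with 32 above 0, 7 higher by at least 0.5 and 0 lower. Of the 12 assembly factors of other names that were kept, 9 were above 0, with a median of 0.38. mt-Nd3, the only subunit encoded by mitochondrial DNA that was measured, was 11.80 in F0 EX and 11.12 in F0 SED, and it was also low in F1 EX pool 1, at 11.15. The means of the 3 keratinocyte markers kept (of 4) were 4.47 in F0 EX, 5.29 in F0 SED and 3.36 to 3.92 in the descendants. The part of muscle content, fibre type, other cell types and skin RNA in the members' values was not tested.

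The next comparison set the 2 F0 pools against the 8 descendant pools. Most members were lower in F0, with a median of -0.16 beside -0.02 over all genes kept, and 10 of 43 above 0. No member passed adjusted p 0.05 in limma, while 2.33% of all genes did. At an unadjusted p under 0.05 there were 1 member higher and 5 lower, beside 17.6% of genes in either direction. In groups that do not overlap, 0 members were higher and 1 was lower, beside 5.79% and 6.65% of genes.

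Ndufa1, a small membrane subunit encoded on the X chromosome, had the smallest p. It measured 8.57 in F0 EX and 8.10 in F0 SED, and from 8.52 to 8.89 in the descendants (8.73 ± 0.11, SD, n = 8). The difference was -0.39 ± 0.12 (SE; limma adjusted p = 0.12), and only F0 SED lay outside the range of the descendants. Ndufa12, an accessory subunit of the NADH-binding module, was 8.41 and 8.11 against 8.26 to 8.88 (difference -0.47 ± 0.15, SE; limma adjusted p = 0.128). Of the descendants only F1 EX pool 1 overlapped it, and without that pool the difference was -0.54. The pool left out was singled out by its values in these same data, so this is a size and no test. Ndufaf2, the assembly factor related in sequence to Ndufa12, was the 1 member with a higher value in F0 at an unadjusted p under 0.05, at 5.66 and 5.72 against 5.13 to 5.70 (difference 0.32 ± 0.13, SE; limma adjusted p = 0.248). Ndufc2 of the proximal arm was the member whose groups did not overlap, with 9.71 and 9.64 against 9.74 to 9.97 (difference -0.18 ± 0.11, SE; limma adjusted p = 0.416).

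The direction rested on F0 SED. Without it, the median over the members was 0.00, with 22 of 43 above 0. With F0 SED and F1 EX pool 1 both left out it was -0.01, and Ndufb6 went from -0.37 to -0.01. With F0 SED as the only F0 pool, the difference was -0.84 for Ndufaf1, -0.79 for Ndufb6, -0.74 for Ndufab1 and -0.68 for Ndufb11. That pool was singled out by its values in these same data, so these are sizes and no test. The second probe set of Ndufb11 measured 8.66 in F0 SED, within the 8.50 to 8.96 of the descendants. Marker lists differed too. Skeletal muscle markers had a median of -0.21 with 1 of 10 above 0, fast fibre genes -0.15 with 0 of 10 and slow or oxidative fibre genes -0.01 with 4 of 9, and myeloid genes had -0.34 with 1 of 8; 0 genes of these lists were called. Of the 5 endothelial genes all were lower in F0 (median -0.46) and 2 were called, and of the 3 keratinocyte genes all were higher and 2 were called. The 44 subunits of complexes II to V had a median of -0.16, with 5 above 0 and 0 called. How far these lists bear on the members was not tested.

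The question of exercise ancestry was put first to F1. The members' levels were close between F1 EX and F1 SED, with a median difference of -0.03, beside 0.00 over all genes, and 15 of 43 above 0. Under quantile normalization the median was 0.01. The 95% confidence interval lay within 0.5 of 0 for 25 members. The count past adjusted p 0.05 in limma was 0 of 43, beside 0% of genes, and at an unadjusted p under 0.05 it was also 0, beside 4.88% of genes. With 2 pools a group, groups that do not overlap were common. They were higher in 2 members and lower in 9, beside 1559 and 1980 of 11963 genes. The largest differences were those of members that set F1 EX pool 1 apart. Ndufaf3 measured 4.62 and 5.39 in F1 EX and 5.54 and 5.42 in F1 SED, a difference of -0.48 ± 0.21 (SE; limma adjusted p = 0.804). The groups did not overlap, but the 2 pools of F1 EX differed by more than the 2 groups did. Without F1 EX pool 1 the difference was -0.09. Ndufaf4 behaved alike, with 5.91 and 6.48 against 6.60 and 6.55, a difference of -0.38 ± 0.17 (SE) that became -0.10 without that pool.

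Ndufs5 measured 7.20 and 7.93 in F1 EX and 7.98 and 7.96 in F1 SED. Ndufab1 measured 8.05 and 8.48 against 8.64 and 8.55, and Ndufa8, a proximal arm subunit on the intermembrane side, 9.32 and 9.69 against 9.79 and 9.74. In each of these 3 the first pool of F1 EX was the lowest and the second lay near F1 SED. In the probe set that Ndufs5 shares with a second symbol, the F1 EX pools had 6.58 and 6.47 against 6.79 and 6.59. Ndufb10 of the distal arm measured 6.76 and 6.34 against 6.28 and 6.31, with the first pool high. Ndufa1 was the exception among the named members, since its F1 EX pools were alike, 8.75 and 8.74, against 8.68 and 8.52 (difference 0.14 ± 0.13, SE; limma adjusted p = 0.826). With F1 EX pool 1 as the only pool of its group, the fit describes how far that pool lay from F1 SED and is no test. The difference was -0.86 for Ndufaf3, -0.66 for Ndufaf4, -0.55 for Ndufab1, -0.52 for Ndufa12 and 0.81 for Ndufb3. Adipocyte markers were lower in F1 EX in 5 of 5, with a median of -0.78 and 0 called: their mean was 5.26 and 5.40 in F1 EX, and 5.85 and 6.08 in F1 SED. Their part in the members' values was not tested.

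In F2 the difference was again small, with a median of 0.02, beside 0.04 over all genes, and 28 of 43 members above 0 (65.1%, beside 60.7%). Under quantile normalization the median was -0.01 with 20 of 43 above 0 (46.5%, beside 55.3%). None of the 43 passed adjusted p 0.05 in limma, beside 0% of genes. Groups that do not overlap were again common, higher in 10 members and lower in 2, beside 3089 and 1743 of 11963 genes. Only 1 member, Ndufaf2, had an unadjusted p under 0.05, beside 4.45% of genes. It measured 5.70 and 5.41 in F2 EX and 5.13 and 5.23 in F2 SED, a difference of 0.38 ± 0.15 (SE; limma adjusted p = 1.00). The groups did not overlap, and the 2 pools of F2 EX were 0.29 apart. Ndufv3, an accessory subunit of the NADH-binding module, measured 6.61 and 6.63 against 6.55 and 6.09, where the second sedentary pool made the difference. Ndufb3 measured 6.39 and 6.23 against 6.06 and 5.99, and Ndufa5, of the matrix arm, 8.29 and 8.16 against 8.13 and 8.00. Ndufb6 lay lower in F2 EX, with 9.55 and 9.50 against 9.70 and 9.69. Slow or oxidative fibre genes were above 0 in 9 of 9 in the same comparison, with a median of 0.29 and 0 past the adjusted threshold. Fast fibre genes were above 0 in 10 of 10 (median 0.04) and skeletal muscle markers in 8 of 10 (median 0.03). The regulators of mitochondrial genes were above 0 in 9 of 9 (median 0.12), and adipocyte markers in 1 of 5 (median -0.16). The part of these lists in the members' values was not tested.

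The ancestry effect in F2 was then set against that in F1. For the difference of the 2 effects, limma called 0 of 43 members after adjustment, beside 0% of genes, and 0 at an unadjusted p under 0.05, beside 4.34% of genes. Ndufaf4 had the largest difference of effects, 0.50 ± 0.24 (SE; limma adjusted p = 0.919): F1 EX was below F1 SED in both pools, and F2 EX, with 6.59 and 6.52, was above F2 SED, with 6.45 and 6.41. Among the other members with the smallest p it was 0.47 ± 0.30 (SE) for Ndufaf3, 0.38 for Ndufa5, 0.35 for Ndufaf2 and 0.32 for Ndufa8, and Ndufv3, with a wider error, had 0.48 ± 0.37 (SE). Without F1 EX pool 1 the difference of effects was 0.22 for Ndufaf4 and 0.08 for Ndufaf3. Of the 7 assembly factors 6 had a difference of effects above 0, with a median of 0.15.

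With 4 pools of each ancestry over both generations, the estimates centred on 0. The median difference was 0.00, beside 0.01 over all genes, with 20 of 43 above 0, and the count in limma was 0 after adjustment, beside 0% of genes. It was 0 at an unadjusted p under 0.05, beside 4.99% of genes, and 0 members had groups that did not overlap, beside 1.75% of genes higher and 1.28% lower. The 95% confidence interval lay within 0.5 of 0 for 40 of the 43 members. The other 3 were Ndufaf3 (-0.60 to 0.11), Ndufb3 (-0.09 to 0.68) and Ndufs5 (-0.63 to 0.19), which are also the members with the widest spread among descendants.

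The core subunits were estimated with unequal precision. For Ndufs3 the ancestry difference was 0.00, with an interval from -0.18 to 0.17, and for Ndufv1 it was 0.00 (-0.19 to 0.20). Ndufs7 had -0.03 (-0.24 to 0.18), Ndufv2 -0.06 (-0.24 to 0.12) and Ndufs8 0.07 (-0.26 to 0.40). Ndufs1 had the largest core estimate, 0.15 (-0.06 to 0.35). Each interval spans 0 and differences of either sign up to its bounds. Ndufaf1 had 0.02 (-0.18 to 0.23), Ndufa4 0.05 (-0.14 to 0.24) and Ndufa4l2 -0.03 (-0.25 to 0.20). The smallest p belonged to Ndufb6, which measured 9.39 ± 0.20 (SD, n = 4) with exercised and 9.57 ± 0.18 (SD, n = 4) with sedentary ancestry, a difference of -0.18 ± 0.10 (SE; limma adjusted p = 0.888).

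**Figure D5:**
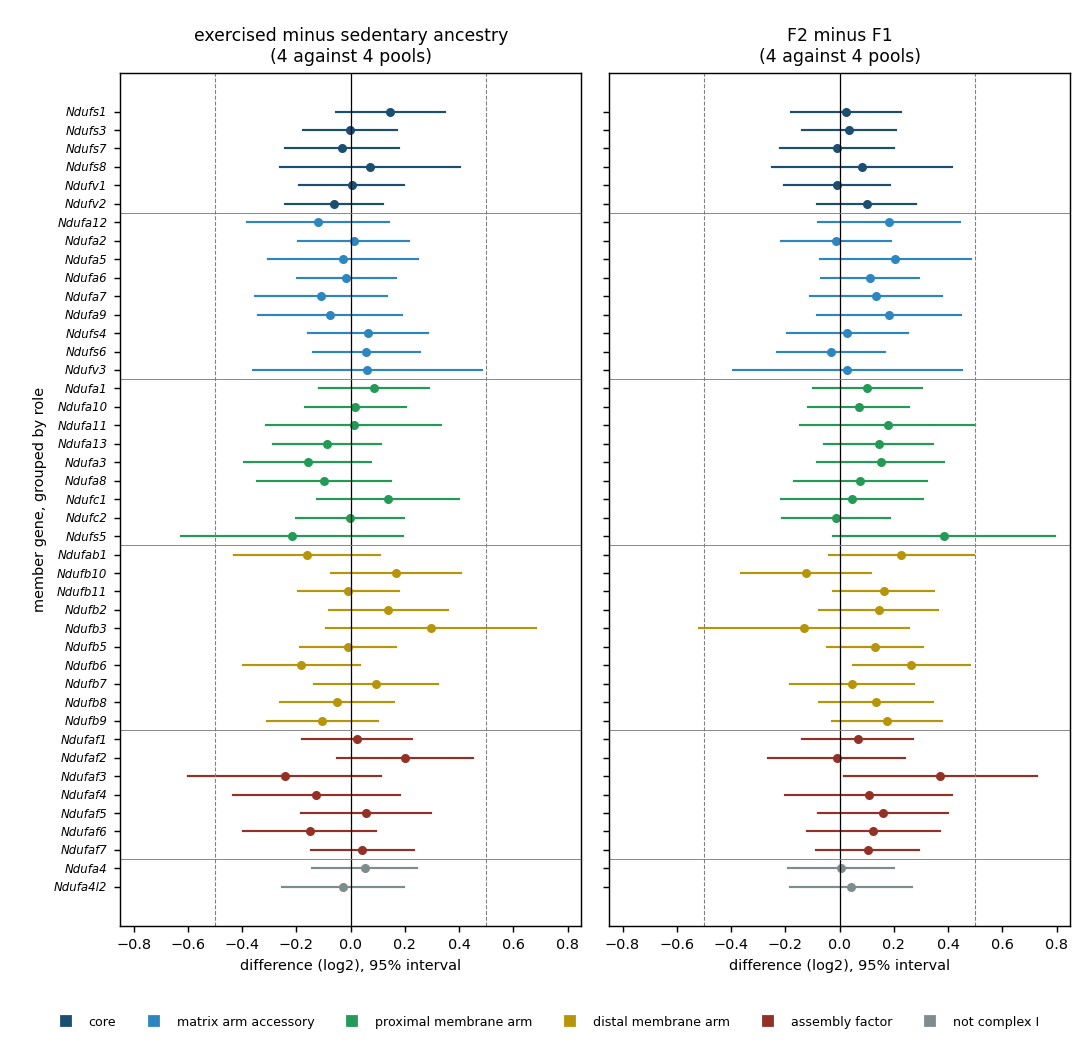
Estimated difference (point) and 95% confidence interval (line), in log2, for each of the 43 members grouped by role: exercised minus sedentary ancestry on the left, F2 minus F1 on the right, 4 against 4 pools. Intervals on the left centre on 0, with 20 of 43 estimates above it; on the right 35 of 43 estimates lie above 0.

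Between the generations of like age, F2 was higher than F1 in 35 of the 43 members, a share of 81.4%, beside 51.6% of all genes kept. The median was 0.10, beside 0.00. It was a shift of small size, and limma called 0 members after adjustment, beside 0% of genes. At an unadjusted p under 0.05 there were 2 members, both higher, beside 4.25% of genes. In 3 members the 4 F2 pools lay above the 4 F1 pools and in 0 below, beside 1.77% and 1.11% of genes. The estimates above 0 numbered 41 with centred arrays (65.9% of genes) and 30 with quantile normalization (49.3%). They numbered 37 without F1 EX pool 1 (54.4%), and between 29 and 37 with any 1 descendant pool left out.

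Each role had a median above 0, the smallest being those of the core subunits and of Ndufa4 with Ndufa4l2 (0.02). Above 0 were 6 of 7 assembly factors (median 0.11), 8 of 9 proximal (0.10), 8 of 10 distal (0.14) and 7 of 9 matrix arm subunits (0.11), and 4 of 6 core subunits (0.03). Ndufb6 had the smallest p, with 9.61 ± 0.10 (SD, n = 4) in F2 and 9.35 ± 0.20 (SD, n = 4) in F1, a difference of 0.26 (95% interval 0.05 to 0.48; limma adjusted p = 0.911). Its highest F1 pool, 9.58, lay above the lowest F2 pool, 9.50. Ndufaf3 had a mean of 5.61 ± 0.05 over the F2 pools and 5.24 ± 0.42 over the F1 pools (SD, n = 4 each). Its difference of 0.37 was 0.17 without F1 EX pool 1. Its groups did not overlap, nor did those of Ndufb11 and Ndufb5, both distal arm subunits. The second probe set of Ndufb11 did overlap, with 8.54 to 8.73 in F2 and 8.50 to 8.96 in F1. Its chosen probe set measured 9.68 ± 0.04 against 9.52 ± 0.09, and Ndufb5 10.38 ± 0.02 against 10.25 ± 0.06 (SD, n = 4 each). Their differences, 0.16 and 0.13, had limma adjusted p-values of 0.911 each. The exceptions in direction were led by Ndufb3, at -0.13.

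Genes around the complex had medians above 0 as well. The 44 subunits of complexes II to V had a median of 0.06 in F2 minus F1, with 32 above 0, 2 at an unadjusted p under 0.05 and 0 called. The 12 other assembly factors had a median of 0.08, with 7 above 0, and mt-Nd3 differed by 0.22. Among 9 regulators of mitochondrial genes, which include Ppargc1a, Esrra, Nrf1, Gabpa and Tfam, 5 were above 0, with a median of 0.02 and 0 called. Fast fibre genes were above 0 in 10 of 10 (median 0.07) and slow or oxidative fibre genes in 6 of 9 (median 0.12). Skeletal muscle markers were above 0 in 8 of 10 (median 0.07) and adipocyte markers in 5 of 5 (median 0.13), with 0 called in either list. The part of fibre type and of these cells in the members' values was not tested.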

How the data were processed

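The table the authors deposited gives log2 probe set signals of 10 arrays over 35557 probe sets, from 0.966 to 14.2, a range from which the log2 unit was read. Affymetrix Expression Console is named in the submitters' processing notes. The sources used here do not give its version, the steps from scan to signal or a build. Medians of the arrays ran from 3.22 to 3.36. No further scaling was applied.

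Gene names come from GEO's annotation of the platform, whose symbols may be outdated: 21789 probe sets had 1 symbol and were used, and those with several (1621) or none (12147) were not. All 43 members matched a RefSeq gene table by Entrez identifier. The filter kept genes whose mean reached the 40th percentile (3.23). Tests used limma 3.58.1 (lmFit, then eBayes; R 4.3.3), and p-values were adjusted by Benjamini-Hochberg over all 11963 genes that passed. A model of 4 groups gave the ancestry effects in F1 and in F2 and the contrast between them. Additive models gave ancestry over both generations and F2 against F1 (8 arrays) and F0 against its descendants (10 arrays). F0 EX and F0 SED were compared by size alone. The script was tested on simulated data. Members and lists were chosen with earlier results of these data known. Named are, for each comparison, every member past the threshold, otherwise the 5 with the smallest p and up to 3 per direction whose groups do not overlap, the 5 highest and 5 lowest F0 differences, the core subunits, Ndufaf1, Ndufa4 and Ndufa4l2. Members named for the arrays that stood apart, for the ends of a range or for their spread, and mt-Nd3, were chosen after their values were seen. Alternatives were other scalings, filters, probe sets, eBayes settings, array weights, a replicate block and the omission of single pools. Leaving out both arrays that stood apart was added after seeing the data.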

Additional observations from a re-analysis of the deposited data

Results flagged for a closer look

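Dixon's criterion was applied to 52 groups of 4 pools, formed by 26 named members in each descendant generation. In 7 of them 1 pool stood far from the other 3. Chance meets the criterion in about 5% of groups, but the members were named from these same values and share the same arrays. The count is therefore no test against that rate. In F1, the lowest value came from F1 EX pool 1 for Ndufa12 (8.26, next 8.73), Ndufaf3 (4.62, next 5.39) and Ndufs5 (7.20, next 7.93), and the highest for Ndufb10 (6.76, next 6.34). F1 SED pool 1 was high for Ndufb9 (9.33, next 9.09). In F2, F2 SED pool 2 was high for Ndufb9 (9.45, next 9.28) and low for Ndufv3 (6.09, next 6.55).

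Ndufaf4 was lower with exercised ancestry in both F1 pools and higher in both F2 pools, a difference of effects of 0.50 on the log2 scale. The interaction was tested, and its limma adjusted p was 0.919.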

How the results depend on the processing

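Each tested count stayed at 0 under other scalings, filters, probe sets, eBayes settings and array weights. With 1 pool left out it ran from 0 to 5 for F1 ancestry and from 0 to 11 for F0 against descendants, where it was 1 without F1 EX pool 1. The 5 came with F1 EX pool 1 as the only pool of its group, and the 11 with F0 SED as the only F0 pool. Both arrays were singled out by their values in these same data, and genes outside the members were called too. These counts are therefore no test and are not read as a trait of the members. The 1 member without F1 EX pool 1 stood beside 4.88% of genes. Over the omissions of 1 pool the median ran from -0.091 to 0.018 for F1 ancestry, from -0.014 to 0.13 for the difference of ancestry effects and from -0.21 to 0.0045 for F0 against descendants. There Ndufb6 ran from -0.79 to 0.046, the reversal coming without F0 SED, and leaving out F0 SED and F1 EX pool 1 together gave a median of -0.014. With centred arrays the median was 0.078 for F2 ancestry, 0.13 for the difference of effects and 0.34 for the F0 pair, and Ndufs7 in F2 reversed to 0.0028. With quantile normalization it was -0.049 for the difference of effects, -0.10 for F0 against descendants and -0.0525 for the F0 pair. The number of members past a bound in the F0 pair, 13 at 0.5, was 24 at 0.3 and 0 at 1. The cause of these moves was not tested, beyond what each omission or bound itself changes. With the pool number as a replicate block 0 members passed in every comparison, and the median for F2 against F1 was 0.10. Correlations of the pools' deviations between groups ran from -0.11 to 0.06. These values do not settle what the pool number marks, which the labels do not state.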
